A study of Mus musculus with 8 samples.

Results

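The genes of endothelial cell junctions and endothelial receptors described here are Esam, Pecam1, Cdh5, Kdr, Cldn5, Tek, Tie1, Emcn, Egfl7 and Ramp2. They are 10 of the 49671 gene identifiers in the count table, and all 10 passed the filter on low counts that left 20162 genes for testing. They were chosen by name from the authors' table of the comparison of SmoM2 with control lungs, with the direction of that comparison known: 8 were lower and 2, Tek and Ramp2, higher in SmoM2. Their group differences are therefore given as a description, without a test. The cells came from adult mouse lung. The SmoM2 group held 4 samples of genotype Gli2creERT2-tdt:R26RYFP/SmoM2, in which a tamoxifen-dependent Cre recombinase expressed from Gli2 switches on both a yellow fluorescent reporter and SmoM2, an active form of the Hedgehog transducer Smoothened. The control group held 4 samples of genotype Gli2creERT2-tdt:R26RYFP, which carry the same Cre allele and reporter without SmoM2. SmoM2 animals received intraperitoneal tamoxifen, 200 mg per kg daily for 5 days, per the labels' protocols, and for control animals the sources used here state no dosing. Whole lungs were digested, live single cells with yellow fluorescence were sorted, and RNA was sequenced from each sorted population. A sort on the reporter selects cells in which the Gli2-driven Cre has acted, not a cell type.

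Endothelial cells line the blood vessels and are held together by adherens junctions, built on the cadherin encoded by Cdh5, and by tight junctions, in which the claudin encoded by Cldn5 closes the gap between cells. Vascular growth and quiescence are set by receptor tyrosine kinases on the endothelial surface: the product of Kdr binds vascular endothelial growth factor, and the product of Tek binds angiopoietins, with the related receptor encoded by Tie1 modulating that response. The lung holds one of the densest capillary beds of the body.

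Depth ran between 91.62 and 111.6 M estimated count units in the 8 libraries. Among 20162 genes, 0 passed edgeR's quasi-likelihood test at an adjusted p under 0.05 (0%), with 756 genes (3.75%) at an unadjusted p under 0.05. DESeq2 called 65 of the 24769 genes to which it gave an adjusted p (0.262%), and limma-voom called 0. Libraries are named by group and by the number in their column name, which does not show the animal. Each sample title carries a number of its own, but no label ties it to an animal. The p-values then reflect only variation among these samples, part of which may be technical.

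The junction genes opened the set with Esam, which encodes an immunoglobulin-type adhesion molecule of endothelial junctions and platelets (ENSMUSG00000001946, mm10 chromosome 9, 37528078 to 37538319). It stood at 4.47, 3.60, 4.73 and 2.59 CPM in SmoM2 libraries 1 to 4, against 7.22, 7.33, 9.18 and 15.3 CPM in control libraries 1 to 4. All 4 SmoM2 libraries lay below all 4 controls. The means were 3.85 ± 0.97 CPM in SmoM2 and 9.75 ± 3.79 CPM in control (SD, n = 4 each), and the fitted log2 fold change was −1.34 with an SE of 0.30. Groups without overlap and lower in SmoM2 were found for 286 of the 20162 genes tested (1.42%), and among the 10 genes here for Esam and Kdr. Groups without overlap and higher in SmoM2 were found for 1.02% of genes and for none of the 10. Esam was also the single gene of the 10 that DESeq2 called, where 0.141% of genes were called lower. The authors' deposited DESeq comparison of the same libraries did not call it, with an adjusted p of 0.70. Nothing is read from these counts, since the genes were chosen on this comparison.

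Pecam1 encodes the adhesion molecule CD31, which endothelial cells share with platelets and leukocytes (ENSMUSG00000020717, chromosome 11, 106654217 to 106750628). It stood at 10.1, 7.40, 10.96 and 9.74 CPM in SmoM2 libraries 1 to 4, against 8.28, 9.42, 7.63 and 32.8 CPM in control libraries 1 to 4. The groups overlapped, and control 4 alone lay above all SmoM2 libraries. The log2 fold change was −0.61 (SE 0.47).

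Cdh5, the gene of vascular endothelial cadherin (ENSMUSG00000031871, chromosome 8, 104101625 to 104144511), had 3.01, 5.11, 10.4 and 4.79 CPM in SmoM2 libraries 1 to 4, against 4.49, 8.60, 7.47 and 44.4 CPM in control libraries 1 to 4. Control 4 was far above the other controls, SmoM2 3 was the highest of its group, and the remaining libraries of both groups overlapped. The means were 5.83 ± 3.19 CPM in SmoM2 and 16.2 ± 18.9 CPM in control (SD, n = 4 each), so that the spread among the controls exceeded the difference. The log2 fold change was −1.48 (SE 0.74).

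Cldn5, the gene of the main endothelial claudin (ENSMUSG00000041378, a single-exon gene on chromosome 16, 18776847 to 18778262), had a similar order of libraries. It had 1.05, 2.03, 4.52 and 1.70 CPM in SmoM2 libraries 1 to 4, against 1.78, 2.52, 2.64 and 16.6 CPM in control libraries 1 to 4. Control 4 and SmoM2 3 were again the highest of their groups, and the other 6 libraries overlapped. The log2 fold change was −1.34 (SE 0.79).

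Of the receptors, Tie1 (ENSMUSG00000033191, chromosome 4, 118471191 to 118490061) was like Cdh5 and Cldn5. It had 1.25, 1.46, 4.58 and 1.52 CPM in SmoM2 libraries 1 to 4, against 1.26, 2.91, 3.20 and 14.7 CPM in control libraries 1 to 4. The groups overlapped, and control 4 and SmoM2 3 were the highest of their groups. The log2 fold change was −1.32 (SE 0.77).

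Tek, the gene of the angiopoietin receptor and the closest relative of Tie1 (ENSMUSG00000006386, also on chromosome 4, 94739289 to 94874976), had another order. It stood at 49.5, 74.7, 23.0 and 91.3 CPM in SmoM2 libraries 1 to 4, against 23.8, 38.5, 57.8 and 28.5 CPM in control libraries 1 to 4. SmoM2 3, the library with the most Tie1 of its group, had the least Tek of all 8, and the groups overlapped. The means were 59.6 ± 29.9 CPM in SmoM2 and 37.2 ± 15.1 CPM in control (SD, n = 4 each), and the log2 fold change was 0.68 (SE 0.42).

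Kdr, the gene of vascular endothelial growth factor receptor 2 (ENSMUSG00000062960, chromosome 5, 75932827 to 75978458), was lower in SmoM2 but did not share the library order of the junction genes either. It had 16.3, 15.4, 8.37 and 9.40 CPM in SmoM2 libraries 1 to 4, against 18.5, 23.3, 34.2 and 16.6 CPM in control libraries 1 to 4. The groups did not overlap, yet control 4 was the lowest control and SmoM2 3 the lowest library of all. The log2 fold change was −0.90 (SE 0.29).

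Ramp2 encodes a small membrane partner that turns the calcitonin receptor-like receptor into a receptor for adrenomedullin (ENSMUSG00000001240, chromosome 11, 101246028 to 101259546). It had 65.1, 39.9, 38.0 and 58.4 CPM in SmoM2 libraries 1 to 4, against 46.1, 40.0, 34.7 and 42.7 CPM in control libraries 1 to 4. The groups overlapped, and the log2 fold change was 0.30 (SE 0.19). In the annotation 33.4% of the exon bases of Ramp2 are shared with Vps25, a sorting-complex gene on the same strand, so the split of reads between them is uncertain. Vps25 averaged 16.3 CPM in SmoM2 and 12.4 CPM in control, with a log2 fold change of 0.40 (SE 0.33).

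Egfl7 encodes a protein that endothelial cells secrete into their matrix (ENSMUSG00000026921, chromosome 2, 26580014 to 26593120). It had 0.95, 0.69, 3.38 and 1.33 CPM in SmoM2 libraries 1 to 4, against 1.80, 2.03, 1.80 and 8.98 CPM in control libraries 1 to 4. Control 4 and SmoM2 3 were the highest of their groups, the groups overlapped, and the log2 fold change was −1.20 (SE 0.70). Other annotated genes, Agpat2 on the opposite strand among them, share 11.2% of its exon bases, and the sources used here do not state strand-specific counting.

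Emcn, the gene of the sialomucin endomucin of capillary and venous endothelium (ENSMUSG00000054690, chromosome 3, 137341067 to 137432185), was close to the detection limit. Its estimated counts were 5, 4, 60 and 20 units in SmoM2 libraries 1 to 4, against 17, 99, 72 and 186 units in control libraries 1 to 4. Control 4 and SmoM2 3 were again highest, and the 2 lowest values amount to about 1 sequenced fragment, if a fragment adds about 5 units. The log2 fold change of −2.05 (SE 0.90) rests on these few fragments.

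**Figure D1:**
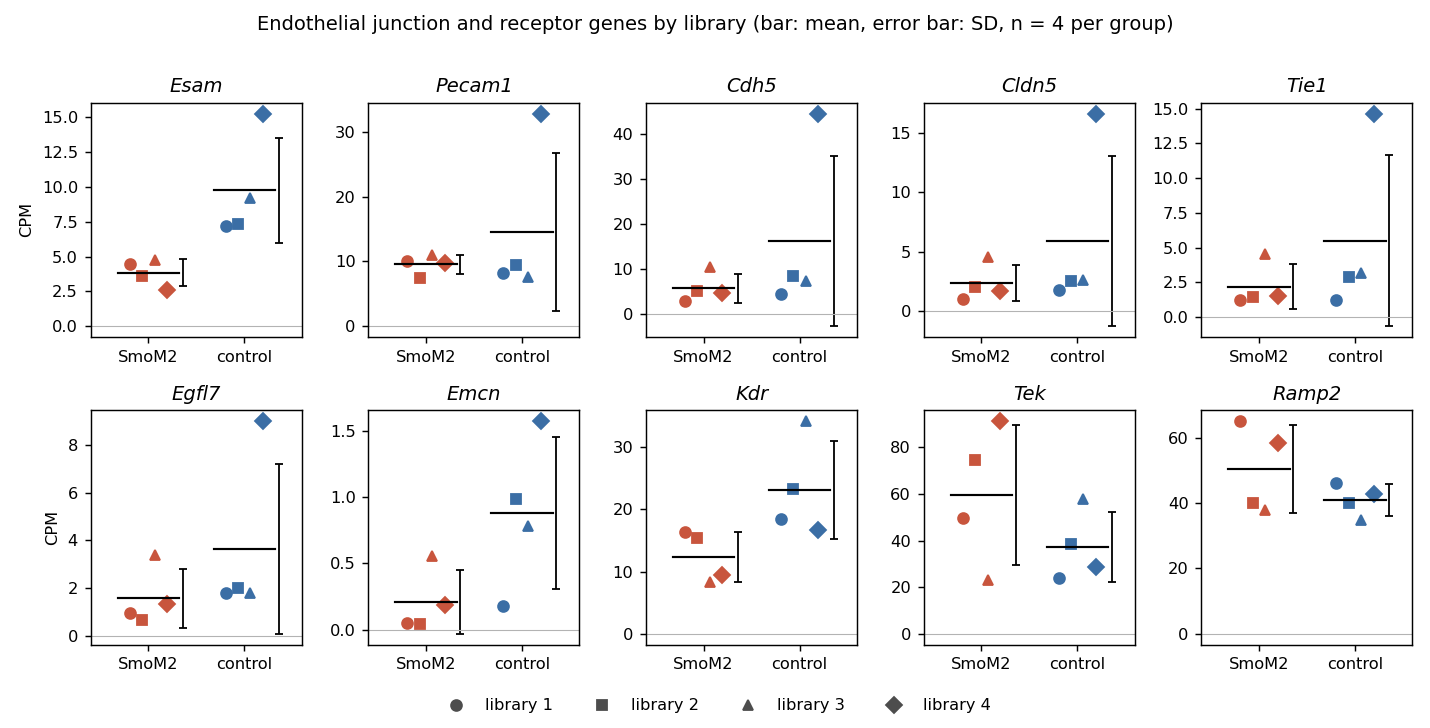
CPM of each gene in the 8 libraries, SmoM2 left and control right, 1 panel a gene with its own axis; symbols mark the library number, horizontal bars the group mean and error bars the SD (n = 4). Control 4 stands apart for Pecam1 at 32.8 CPM, Cdh5 at 44.4 CPM, Cldn5 at 16.6 CPM, Tie1 at 14.7 CPM and Egfl7 at 8.98 CPM, but not for Kdr, Tek or Ramp2.

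Within the groups the 10 genes thus fell into sets by library order. For 7 of them (Esam, Pecam1, Cdh5, Cldn5, Tie1, Egfl7 and Emcn) control 4 was the highest control and SmoM2 3 the highest SmoM2 library. Among all genes tested, control 4 was the highest control for 31.2%, SmoM2 3 the highest SmoM2 library for 30.7%, and both held at once for 17%, 3429 of 20162. These shares are no neutral baseline, since the genes were chosen on the group comparison and a very high control library can itself make a gene lower in SmoM2. Control 4 exceeded the mean of the other 3 controls 7.20 times for Cldn5, 6.48 times for Cdh5, 5.96 times for Tie1, 4.79 times for Egfl7, 3.88 times for Pecam1, 2.42 times for Emcn and 1.93 times for Esam. For Kdr, Tek and Ramp2 the same ratio was 0.66, 0.71 and 1.06. SmoM2 3 exceeded the mean of the other 3 SmoM2 libraries 5.88 times for Emcn, 3.43 times for Egfl7 and 3.24 times for Tie1. It did so 2.83 times for Cldn5 and 2.42 times for Cdh5, but only 1.33 times for Esam and 1.21 times for Pecam1. Its ratio was 0.32 for Tek, 0.61 for Kdr and 0.70 for Ramp2. Ratios of Emcn are uncertain at its few fragments. This division of the genes was seen in the data and carries no test.

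**Figure D2:**
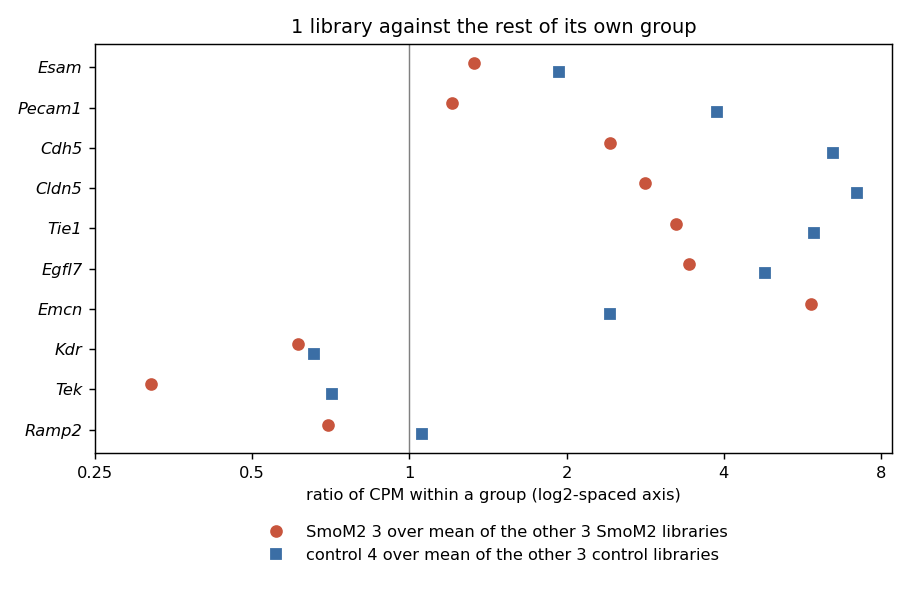
Ratio of CPM in 1 library to the mean of the other 3 of its own group, on a log2-spaced axis, for SmoM2 3 (circles) and control 4 (squares); a ratio of 1 is the vertical line. Cldn5, Cdh5 and Tie1 lie right of the line at both symbols, and Kdr and Tek lie left of it at both.

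Other cell types moved with the same libraries. Of the 22 other endothelial markers listed, all tested, control 4 was the highest control for 17 and SmoM2 3 the highest SmoM2 library for 14, and their summed level was 71.0, 76.9, 115.7 and 104.4 CPM in SmoM2 libraries 1 to 4, against 73.1, 121.1, 107.5 and 298.8 CPM in control libraries 1 to 4. No other endothelial marker except Grrp1 was at 0 in any library. Epithelial markers, all 15 tested, had control 4 highest for 11 and SmoM2 3 highest for 13. Their sum was 528.7, 369.3, 1127 and 326.9 CPM in SmoM2 libraries 1 to 4, against 405.5, 482.5, 497.9 and 1722 CPM in control libraries 1 to 4. The surfactant gene Sftpc of alveolar type 2 cells reached 563.9 CPM in SmoM2 3 and 991.8 CPM in control 4. Fibroblast markers, 14 of 14 tested and none at 0, had their lowest sums in the same libraries. These were 50743 CPM in SmoM2 3 (range in SmoM2 up to 77881) and 48735 CPM in control 4 (range in control up to 67654). Gsn alone made up 25035 CPM of the sum in SmoM2 3 and 25333 CPM in control 4. Single genes differed: control 4 was the highest control for 5 of the 14, Pdgfra and Tcf21 among them. SmoM2 3 was the highest SmoM2 library for 3. The part of these cell types in the differences of the 10 genes was not tested. In such sorted bulk samples, fewer cells of a type and less RNA per cell cannot be told apart.

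Kdr had the same group direction as the mesothelial list, the markers of the cells that cover the lung surface, of which all 10 were lower in SmoM2 and none passed edgeR's test. Mesothelial markers summed to 216.0, 228.8, 108.2 and 128.8 CPM in SmoM2 libraries 1 to 4, against 439.2, 315.0, 507.9 and 282.6 CPM in control libraries 1 to 4, without overlap. As for Kdr, control 3 had the highest sum, control 4 the lowest of the controls and SmoM2 3 the lowest of all. Unlike Kdr, the sum was higher in control 1 than in control 2, and higher in SmoM2 2 than in SmoM2 1. Having control 4 and SmoM2 3 lowest in their groups was not particular to this list, as Cd34 and Jam2 had it too. Whether mesothelial RNA has a part in the Kdr difference was not tested. Immune markers (18 of 18 tested, none at 0) summed to 561.5 to 1749 CPM in SmoM2 and 548.1 to 781.6 CPM in control. Platelet markers, of which 6 of 8 were tested and Ppbp and Treml1 were among those at 0 in at least 1 library, summed to 12.96 to 22.2 CPM in SmoM2 and 13.2 to 19.0 CPM in control.

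**Figure D3:**
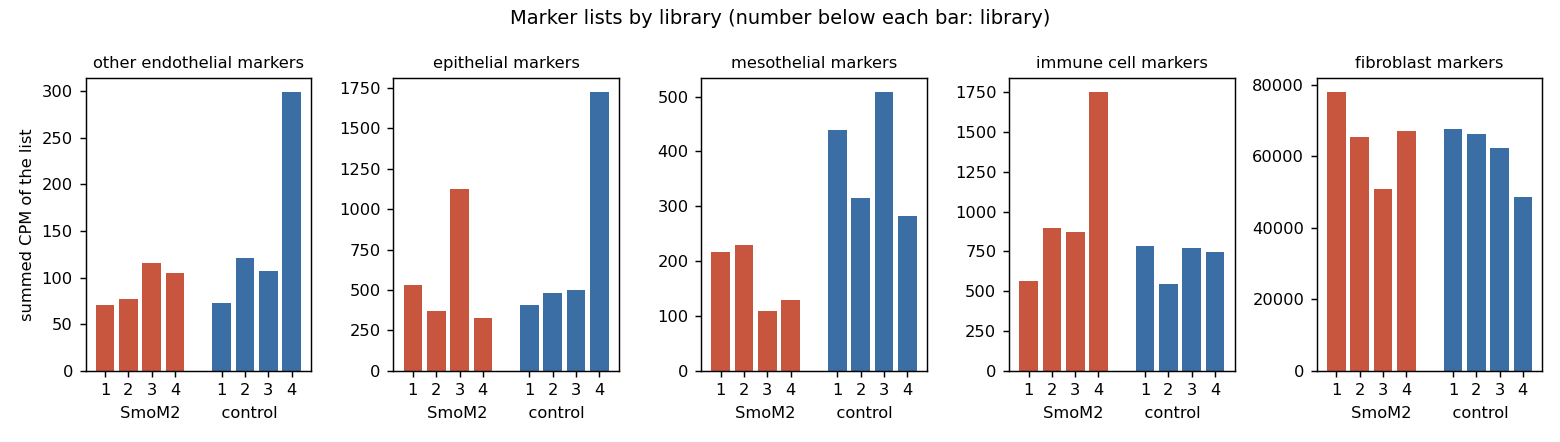
Summed CPM of 5 marker lists in each library, SmoM2 libraries 1 to 4 left and control libraries 1 to 4 right, each panel with its own axis from 0. Control 4 has the highest sums of other endothelial (298.8 CPM) and epithelial markers (1722 CPM) and the lowest of fibroblast markers, and mesothelial sums are higher in all 4 control libraries.

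Leaving out control 4 made the differences of Pecam1, Cldn5, Tie1, Cdh5 and Egfl7 much smaller, while Esam, Kdr and Emcn kept larger ones. Without it the log2 fold change was 0.18 for Pecam1, 0.01 for Cldn5, −0.15 for Tie1, −0.23 for Cdh5 and −0.24 for Egfl7. It was −1.04 for Esam, −1.03 for Kdr and −1.62 for Emcn with its few fragments, and 0.57 for Tek and 0.32 for Ramp2. The median over the 10 genes was −1.26 with all libraries and −0.19 without control 4, beside medians of 0.00 and 0.01 over all genes tested. Without SmoM2 3 the differences of Cdh5, Cldn5, Tie1 and Tek were larger than with all libraries, at −1.92, −1.89, −1.96 and 0.95. Without both, chosen after the data were seen, the values were −0.67 for Cdh5, −0.53 for Cldn5, −0.80 for Tie1, −0.92 for Egfl7, −1.15 for Esam, −0.89 for Kdr, 0.10 for Pecam1 and 0.84 for Tek, and 7 of the 10 genes were lower in SmoM2. The authors' deposited table, which rests on all 8 libraries, gives log2 fold changes from −2.07 for Emcn to 0.69 for Tek.

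**Figure D4:**
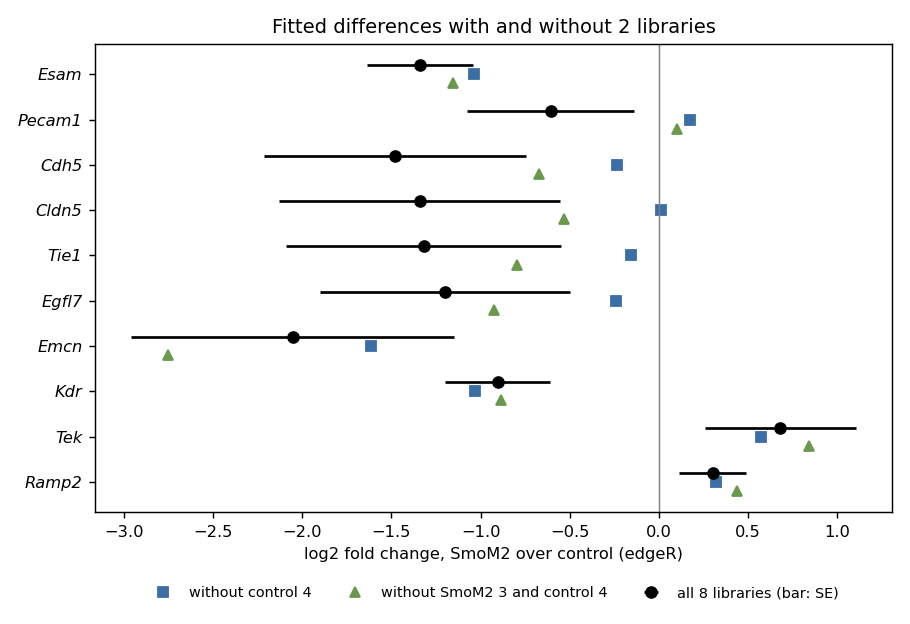
Fitted log2 fold change, SmoM2 over control, of each gene with all 8 libraries (circles, bars are SE), without control 4 (squares) and without SmoM2 3 and control 4 (triangles). Esam, Kdr and Emcn stay below 0 in all 3 fits by 0.89 or more, Pecam1 is at 0.18 and 0.10 when libraries are left out, and Tek and Ramp2 stay above 0.

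Levels of different genes were compared per length, as units per kilobase of exon scaled to 1 total in every library (TPM). Ramp2 was highest, at 52.0 ± 13.3 TPM in SmoM2 and 42.4 ± 6.32 TPM in control, with the overlap with Vps25 touching both its reads and its length. Tek came next at 42.9 ± 21.4 TPM in SmoM2 and 26.6 ± 9.74 TPM in control, within the spread of Ramp2 in SmoM2. The next 5 genes were not separable by their spread. In SmoM2 they lay between 4.59 TPM (Esam) and 5.70 TPM (Cldn5), and in control between 8.11 TPM (Pecam1) and 14.6 TPM (Cldn5). Their order in control rests on control 4. Without it the control means were 9.25 TPM for Esam, 9.36 TPM for Kdr, 5.47 TPM for Cldn5, 5.46 TPM for Cdh5 and 4.56 TPM for Pecam1. Tie1 had 1.56 ± 1.19 TPM in SmoM2 and 3.90 ± 4.51 TPM in control, and Egfl7 1.55 ± 1.25 TPM in SmoM2 and 3.56 ± 3.59 TPM in control, also within each other's spread. Emcn was lowest at 0.14 ± 0.16 TPM in SmoM2 and 0.56 ± 0.38 TPM in control (SD, n = 4 in each group throughout). Thus Tek exceeded Tie1, its closest relative, in each group. For scale, the fibroblast receptor gene Pdgfra stood at 670.6 ± 62.9 TPM in SmoM2 and 596.6 ± 114.9 TPM in control.

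The proximal promoters of members with a shared and with a differing library order are shown for comparison, from RefSeq on build GRCm38.p6 (the sequence of mm10). Each window runs from 250 bases before to 50 after the annotated start, on the gene's strand. Windows were found for 6 of the 10 genes (Kdr, Cldn5, Tek, Tie1, Emcn and Egfl7). Capitals mark GGAAGT on either strand, the core bound by the ETS family of transcription factors with 2 flanking letters. Tie1, Egfl7 and Cldn5 followed control 4, and Kdr and Tek did not.
Tie1 promoter, chr4:118489800-118490099 (minus strand): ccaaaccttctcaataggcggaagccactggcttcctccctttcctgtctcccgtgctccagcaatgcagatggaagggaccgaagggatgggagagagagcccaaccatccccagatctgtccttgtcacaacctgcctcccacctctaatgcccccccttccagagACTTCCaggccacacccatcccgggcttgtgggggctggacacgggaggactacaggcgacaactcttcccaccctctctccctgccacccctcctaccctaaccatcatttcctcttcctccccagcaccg
Egfl7 promoter, chr2:26580833-26581132 (plus strand): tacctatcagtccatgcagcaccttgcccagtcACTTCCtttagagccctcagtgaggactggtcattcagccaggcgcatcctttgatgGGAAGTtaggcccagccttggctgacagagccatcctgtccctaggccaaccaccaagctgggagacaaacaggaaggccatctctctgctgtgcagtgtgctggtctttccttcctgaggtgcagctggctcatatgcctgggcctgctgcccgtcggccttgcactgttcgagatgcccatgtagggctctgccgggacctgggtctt
Cldn5 promoter, chr16:18776597-18776896 (plus strand): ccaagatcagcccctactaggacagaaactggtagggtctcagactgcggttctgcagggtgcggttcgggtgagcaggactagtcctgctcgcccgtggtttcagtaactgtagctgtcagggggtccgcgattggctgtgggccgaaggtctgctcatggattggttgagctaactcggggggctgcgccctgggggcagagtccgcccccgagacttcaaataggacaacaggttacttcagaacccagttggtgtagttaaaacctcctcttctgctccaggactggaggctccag
Kdr promoter, chr5:75978406-75978705 (minus strand): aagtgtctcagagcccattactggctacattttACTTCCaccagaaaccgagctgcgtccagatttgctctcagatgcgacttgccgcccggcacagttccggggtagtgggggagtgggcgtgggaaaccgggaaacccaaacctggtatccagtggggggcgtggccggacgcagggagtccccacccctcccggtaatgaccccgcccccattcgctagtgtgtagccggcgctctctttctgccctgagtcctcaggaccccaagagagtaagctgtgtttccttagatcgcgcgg
Tek promoter, chr4:94739039-94739338 (plus strand): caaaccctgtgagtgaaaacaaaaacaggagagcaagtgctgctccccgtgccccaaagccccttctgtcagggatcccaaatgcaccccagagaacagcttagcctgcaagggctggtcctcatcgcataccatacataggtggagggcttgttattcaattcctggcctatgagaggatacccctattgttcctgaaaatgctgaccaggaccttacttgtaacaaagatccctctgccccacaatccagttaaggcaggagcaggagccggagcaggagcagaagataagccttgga
The 6 letters were found in the windows of Tie1, Egfl7 (first of 3 windows, as printed) and Kdr, and not in those of Cldn5, Tek and Emcn. For Egfl7, window 2 also held them and window 3 did not. The same letters occur in 24.1% of 27025 promoter windows of the same length, 1 per gene. A match is a description of the sequence alone.

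The rest of the vascular repertoire was read from lists of 170 genes, written with earlier results of these data known. None of them passed edgeR's test in either direction over all genes, and limma-voom called 0, while DESeq2 called 3, all of them mesothelial (Msln, Upk3b and Gpm6a). At an unadjusted p under 0.05 edgeR counted 7 of the 10 mesothelial markers, 4 of the 22 other endothelial markers, 3 of 17 junction partners, 2 of 16 other receptors, 2 of 11 ligands and 1 of 16 transcription factors, beside 3.75% of all genes. It counted 1 each of 18 immune, 15 epithelial and 6 lymphatic markers and of the 4 genes of the RAMP and calcitonin receptor family, and 0 of 14 fibroblast, 12 pericyte and 6 platelet markers. Of the other endothelial markers, 21 were lower and 1 higher in SmoM2, with a median log2 fold change of −1.02, beside 51% of all genes below 0 and a median of 0.00. Without control 4 the median of that list was −0.39, and without SmoM2 3 and control 4 it was −0.60. Of 6 lymphatic endothelial markers 5 were lower and 1 higher (median −0.38), and of 12 pericyte markers 7 were lower and 5 higher (median −0.12, and 0.02 without control 2). Of 15 epithelial markers 13 were lower and 2 higher, with a median of −0.33 that was 0.25 without control 4. Mesothelial markers had a median of −1.19, immune markers, 15 of 18 higher, a median of 0.53 that was 0.15 without SmoM2 4, fibroblast markers, 8 of 14 higher, a median of 0.10, and platelet markers, 3 of 6 higher, a median of 0.03. The RAMP and calcitonin receptor family, 2 of 4 higher, had a median of 0.30 that did not keep its sign. It was −0.03 without SmoM2 4, 0.02 without SmoM2 2 and −0.33 with units divided by 5. The median of 0.30 lay between Calcrl (−0.33) and Calcr (0.92, SE 1.59), and Calcr was at 0 in SmoM2 3, control 1 and control 4. Genes this low can drop out of a fit when units are divided, so the genes behind that median may differ.

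Among those other markers, Adgrf5, an adhesion receptor of lung capillaries and of type 2 epithelium, averaged 15.0 ± 8.65 CPM in SmoM2 and 30.9 ± 29.4 CPM in control. Its highest values were 27.7 CPM in SmoM2 3 and 74.9 CPM in control 4. Cd93, a surface glycoprotein of endothelium and myeloid cells, averaged 9.59 ± 5.64 CPM in SmoM2 and 15.6 ± 16.2 CPM in control. Clec14a, a C-type lectin of endothelium, averaged 11.9 ± 1.48 CPM in SmoM2 and 17.2 ± 5.64 CPM in control. Gpihbp1, which anchors lipoprotein lipase to the capillary wall, had its highest value at 7.31 CPM in control 4, against at most 1.29 CPM in the other controls.

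Of the 17 junction partners, 7 were higher and 10 lower in SmoM2, with a median of −0.04. The genes of the catenins, which tie cadherins to actin, overlapped between the groups. Ctnnb1, the gene of beta-catenin, averaged 412 ± 45.0 CPM in SmoM2 and 377 ± 50.3 CPM in control, and Ctnna1, the gene of alpha-catenin, 308 ± 14.5 CPM in SmoM2 and 325 ± 6.80 CPM in control. Icam2, an endothelial and leukocyte adhesion gene, had 5.43 CPM in control 4 and 1.05 to 1.28 CPM in the other controls, as Cdh5 was highest in control 4. Among the SmoM2 libraries it was highest in SmoM2 4, at 1.77 CPM, and not in SmoM2 3. Cd34, which marks both endothelium and adventitial fibroblasts, averaged 744 ± 216 CPM in SmoM2 and 576 ± 115 CPM in control, and its lowest libraries were SmoM2 3 and control 4.

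The other receptors were lower in 12 of 16, with a median of −0.40 that became −0.06 without control 4. Robo4, a guidance receptor largely restricted to endothelium, had 6.06 CPM in control 4 and at most 0.91 CPM in the other controls, and 1.35 CPM in SmoM2 3 and at most 0.70 CPM in the other SmoM2 libraries. Nrp1, a co-receptor for vascular endothelial growth factor and semaphorins, averaged 211 ± 51.8 CPM in SmoM2 and 198 ± 28.7 CPM in control. Acvrl1, a type 1 receptor for bone morphogenetic proteins, averaged 193 ± 15.4 CPM in SmoM2 and 188 ± 25.7 CPM in control. Both overlapped between the groups.

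Of the 16 transcription factors that endothelium uses, 5 were higher and 11 lower, with a median of −0.29 that was −0.09 without control 2. Sox17, a factor of arterial endothelium, had 0.12 to 0.37 CPM in the SmoM2 libraries, against 0.21 to 5.63 CPM in the control libraries, highest in control 4. Epas1, the hypoxia factor also used by type 2 epithelium, had 239.9 CPM in control 4 and at most 94.75 CPM in the other controls. Erg and Fli1, ETS factors of endothelium that are named after their values were seen, did not have control 4 as their highest control. Erg averaged 7.27 ± 2.07 CPM in SmoM2 and 6.39 ± 1.78 CPM in control.

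Of the 11 ligands of these receptors that were tested, 3 were higher and 8 lower, with a median of −0.21. Vegfa, the ligand of the Kdr receptor, averaged 80.4 ± 10.8 CPM in SmoM2 and 105 ± 22.2 CPM in control. Angpt1, the activating ligand of the Tek receptor, averaged 126 ± 20.2 CPM in SmoM2 and 153 ± 30.1 CPM in control, and Adm, the gene of adrenomedullin, averaged 119 ± 30.5 CPM in SmoM2 and 113 ± 35.7 CPM in control. Calcrl, the receptor that Ramp2 partners, averaged 13.1 ± 4.35 CPM in SmoM2 and 16.4 ± 11.2 CPM in control, with its highest value of 32.5 CPM in control 4. Ramp1, the related partner that makes a receptor for calcitonin gene-related peptide, averaged 17.0 ± 13.4 CPM in SmoM2 and 5.54 ± 2.71 CPM in control, a log2 fold change of 1.61 (SE 0.67).

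The genes most like the 10 in library order were sought among 13257 others with a mean of at least 1 CPM, after each gene was centred within its group so that the group difference did not enter. With 8 libraries and so many genes high correlations arise readily, and none carries a p. Genes were not centred again for an r without 2 libraries, so the left-out libraries and a group offset still bear on it. The mean profile of the 8 genes lower in SmoM2 includes Kdr, which ran against others of them. Its r with Cdh5, Cldn5, Tie1, Egfl7 and Pecam1 lay between −0.73 and −0.44, so a match to the mean is not a match to each gene. That mean profile was matched best by Rpl9 (Pearson r = 0.99, Spearman rho = 0.74, n = 8), Aldh6a1 and the alveolar fibroblast factor Tcf21 (r = 0.99 and rho = 0.71). Among the 10 best matches stood the listed endothelial gene Adgrf5 (r = 0.98, rho = 0.90). Without control 4 and SmoM2 3 the r of Adgrf5 was 0.87 and that of Tcf21 0.88. Tek was matched best by Entpd6 (r = 0.99, rho = 1), Stxbp6, Cystm1 and Slfn5, followed by Jam2, a junctional adhesion molecule (r = 0.97, rho = 0.95, and r = 0.95 without SmoM2 3 and SmoM2 4). Jam2 had 133.0, 158.0, 83.7 and 191.4 CPM in SmoM2 libraries 1 to 4, against 70.5, 91.0, 132.3 and 67.1 CPM in control libraries 1 to 4, the order in which Tek stood save for the 2 lowest controls. Ramp2 was matched best by Tma7, Crlf3, Ndufs8, Ndufaf4 and Gart (r from 0.95 to 0.99). Among the 10 genes themselves, Cdh5 and Cldn5 were the closest pair (r = 0.99, rho = 0.98, and r = 0.94 without control 4 and SmoM2 3). The r of Cdh5 with Pecam1 was 0.86 and was 0.21 without those 2 libraries, so that relation was much weaker without them.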

How the data were processed

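RNA of sorted cells was sequenced in 4 SmoM2 and 4 control samples. The values used are estimated counts per Ensembl gene, made by the authors with tools among which the submitters' processing notes list HISAT, StringTie, DESeq and FastQC on mm10, and deposited as whole numbers without scaling between libraries. Versions and roles of these tools are not given. Small values pile up at 4 and 5 units, so a fragment was taken to add about 5 units, and counting error follows fragments. The authors' deposited comparison holds, per the file headers, normalised mean signal per group, a ratio of the group means with its log2, and p-values. All 8 count columns show a group but not an animal and were used as separate replicates. A symbol was found for 99.3% of identifiers. Coordinates (1-based) and exon lengths came from GENCODE M21 on mm10.

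The fit was edgeR 4.0.16 in R 4.3.3 (filterByExpr, TMM, glmQLFit with robust dispersion, Benjamini-Hochberg adjusted p under 0.05), tested on simulated data. Each SE was obtained by dividing the size of the log2 fold change by the root of its F statistic. CPM uses TMM library sizes, and profiles use log2 CPM with a prior count of 2. Alternatives were DESeq2 1.42.0, limma-voom 3.58.1, RLE factors, no filter, units divided by 5, and libraries left out. The members, the 13 other lists and the naming rule were chosen with earlier results of these data known. The rule takes, of each list with no call, the 4 genes with the highest mean CPM and the 2 largest changes, and the 10 or 5 genes most like a profile. Other genes are named after their values were seen. Ratios of 1 library to its group are descriptions added after the data were seen.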

Additional observations from a re-analysis of the deposited data

Results flagged for a closer look

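Among the 10 genes and the list genes taken by the naming rule, 164 combinations of a gene and a group of 4 libraries were examined for a library far from the others by Dixon's criterion at the 95% level, which sets the gap to the nearest library against the group's range. Of these, 21 were flagged, 15 of them at control 4. The nominal 1 in 20 is no baseline for that count. The genes were chosen partly for large group differences, and 1 extreme library can make such a difference. The genes share libraries, so they are not independent.

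Of the endothelial junction and receptor genes, control 4 stood apart as the highest control for Egfl7 (gap share 0.967), Cldn5 (0.942), Pecam1 (0.929), Cdh5 (0.897) and Tie1 (0.855), and SmoM2 3 as the highest SmoM2 library for Tie1 (0.919). Kdr, Tek, Ramp2, Esam and Emcn had no such library.

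Of the other vascular genes, control 4 was far above the other controls for Icam2 (0.948), Robo4 (0.939), Cd93 (0.932), Tal1 (0.932), Adgrf5 (0.894), Gpihbp1 (0.89) and Grrp1 (0.888). The same library was far above the others for the surfactant genes Sftpa1 (0.947), Sftpc (0.946) and Sftpb (0.945). The remaining cases were Calca in control 3 (0.881, highest), Ccl21a in control 2 (0.882, highest), Nrp2 in SmoM2 1 (0.946, lowest), Pf4 in SmoM2 4 (0.855, highest) and Higd1b in SmoM2 3 (0.877, highest).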

How the results depend on the processing

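DESeq2 called 65 genes, against 0 in edgeR, and 3 of the other listed genes, against 0. With 1 library left out, edgeR called 0 to 1 genes, the 1 being Gm20716 without SmoM2 4 (log2 fold change −14.1), and 0 of the other listed genes. Of the 10 genes, 6 to 8 were lower in SmoM2 with 1 library left out, 7 without both SmoM2 3 and control 4, and 8 under DESeq2, RLE factors, no filter, units divided by 5 and limma-voom. The log2 fold changes of Pecam1 (0.18), Cdh5 (−0.23) and Cldn5 (0.01) without control 4 were counted as moved. Those of the other 7 genes were not under any alternative run, which does not make all of them stable. The limit for that count was wider than the SE for at least Tie1, Egfl7 and Emcn. Without control 4, Tie1 went from −1.32 to −0.15 (SE 0.77) and Egfl7 from −1.20 to −0.24 (SE 0.70), by more than their SEs. Emcn went from −2.05 to −3.19 without SmoM2 3, by more than its SE of 0.90. None of the 13 list medians was counted as moved either, yet some turned sign. These were the medians of the RAMP family (0.30, and −0.33 with units divided by 5) and of pericyte markers (0.02 without control 2). The medians of epithelial (0.25 without control 4) and platelet markers (0.03, and −0.02 under limma-voom) did so too. That of junction partners was 0.00 without control 4, and that of lymphatic markers −0.01 with units divided by 5. The filter on low counts, where used, was applied anew to each edgeR fit, so the genes behind a median can differ between settings. Over all alternatives, Esam lay between −1.46 and −1.04, Kdr between −1.07 and −0.66, Tek between 0.40 and 0.97 and Ramp2 between 0.15 and 0.44. Why control 4 differs was not tested. Genes under about 1 CPM, Emcn among them, rest on few fragments. No paired analysis was possible because the column names do not show the animal and no label ties the numbers in the sample titles, which the groups do not share, to animals.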
